A study of Drosophila melanogaster with 4 samples.

Results

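Genes of the thick filament, of tropomyosin and of the Z-disc were followed in whole Drosophila melanogaster females before and after mating. The 10 genes listed were Mhc, Prm, bt, sls, wupA, Tm1, Tm2, Mf, Unc-89 and Zasp66, and a probe set belonged to them when the platform annotation, with symbols updated from RefSeq, assigned it to that gene alone. By this rule 7 of the 10 genes were found, with 14 of the 12443 probe sets that carry 1 gene symbol. Unc-89 is listed under its current RefSeq symbol Obsc. Mhc, the muscle myosin heavy chain gene, wupA, the troponin I gene, and Tm1 were assigned no probe set and are not analysed here.

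A sarcomere is the contractile unit of striated muscle. Thick filaments of myosin, packed in invertebrates around a paramyosin core, slide along thin actin filaments that are anchored in Z-discs and regulated by tropomyosin and troponin. Giant proteins of the titin and obscurin type tie thick filaments to the Z-disc and to each other at the M-line, and insect flight muscle fills much of the thorax.

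All females came from an inbred wild-type Canton S stock, and 4 groups were made. Virgin females were unmated. DTA-E-mated females were paired with transgenic males of Canton S background that lack sperm and make no accessory gland proteins (Acps) in the main cells, which form 96% of the secretory cells of that gland. What drives the DTA-E transgene is not given in the labels. Spermless-mated females were paired with sons of tudor, the offspring of Canton S males and bw sp tud1 females, which transfer Acps but no sperm. Wild-type-mated females were paired with Canton S males. Flies were 3 to 4 days old, reared at 25 °C, and mated females were frozen 1 to 3 h after mating. The labels describe 50 pooled flies, 2 RNA extractions and 4 chips per treatment, whereas the value table holds 1 column per treatment. No replicate values, standard errors or tests are therefore available, and every difference below compares 2 columns.

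Deposited values are logarithms whose base is unstated. They are read here as log2, so that 1 unit is a 2-fold difference, and would be 2.72-fold per unit if the base were e. Each column has a mean near 0, so negative values are low signals rather than decreases. After a filter that kept probe sets whose highest column reached the median of all values (-0.18), 6534 probe sets for 6201 genes remained. Of the 14 probe sets 8 were kept, and through them all 7 genes. Probe sets of a gene were averaged. Levels are given as deposited, whereas differences were taken after centring each column on its median, which raised the spermless-mated column by 0.05 and the wild-type-mated column by 0.03 against the virgin column. The only spread at hand was that between kept probe sets of the same gene, a pooled SD of 0.08 to 0.09 for a difference over 294 genes. It does not cover variation between pools of flies, and the number of arrays limits the precision. Control probe sets differed between columns. The 23 foreign control probe sets had means of -1.26 in virgin, -1.26 in DTA-E-mated, -1.19 in spermless-mated and -1.22 in wild-type-mated females. For actin, the signal at the 3' end minus that at the 5' end, which grows as RNA degrades, was 1.95 in virgin, 2.26 in DTA-E-mated, 2.02 in spermless-mated and 1.97 in wild-type-mated females.

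All 7 measured genes had their highest value in the spermless-mated column. This was so for 23% of all genes compared after centring. In the columns as deposited it was so for 11.4% of all genes and again for the 7. Of these, sls passed the filter only through the spermless-mated column, and without sls the count was 6 of 6. As deposited, 7 of the 8 kept probe sets peaked there, beside 11.3% of all kept probe sets. Of all 14 probe sets 11 peaked there and 3 in the wild-type-mated column. Among the 6 below the filter 4 peaked in the spermless-mated column. The share over all probe sets of the array without the filter was not computed. The 3 columns other than the spermless-mated one lay close together, with ranges of 0.03 for Mf to 0.18 for Prm. The median of these ranges was 0.08 over the 7 genes. Over all genes the median range of those columns was 0.10. With the spermless-mated column included, the range was 0.47 at the median of the 7 genes and 0.12 at the median of all genes. For 5 of the 7 genes the wild-type-mated column was also the lowest, a combination held by 8.58% of all genes. In these whole-animal pools, a different share of muscle cells and a different amount of RNA per cell cannot be told apart.

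**Figure D1:**
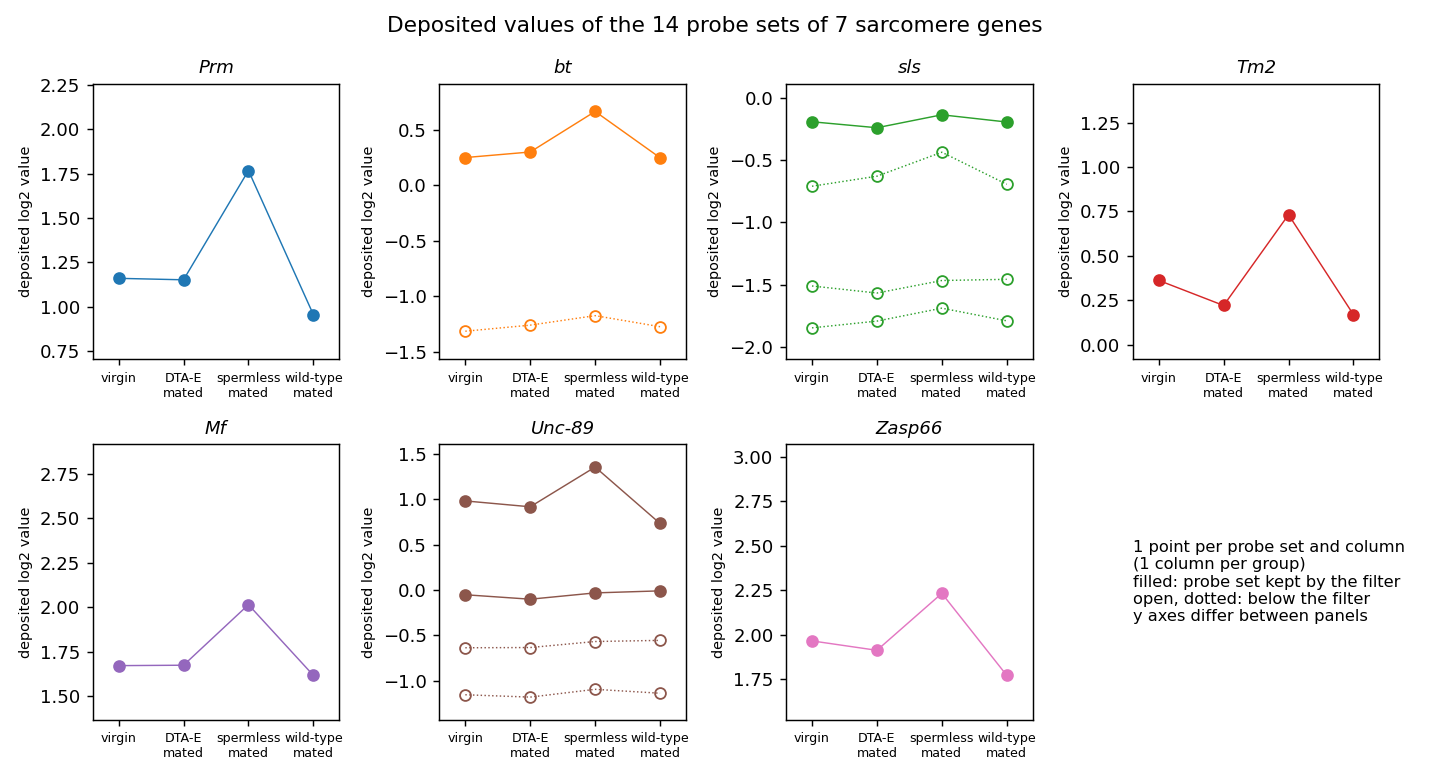
Deposited values, read as log2 (y axis, a separate range for each gene), of every probe set of the 7 measured genes in the 4 columns (x axis). Filled points mark the 8 kept probe sets and open points the 6 below the filter. The bright probe sets peak in the spermless-mated column, whereas the dimmer kept probe set of Unc-89 stays between -0.10 and -0.01.

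Prm had the largest range over the 4 columns of the 7 genes. It encodes paramyosin, the coiled-coil protein of the filament core. Its deposited value was 1.16 in virgin, 1.15 in DTA-E-mated, 1.77 in spermless-mated and 0.96 in wild-type-mated females. The spermless-mated column thus stood 0.66 above virgin and 0.67 above DTA-E-mated females after centring, which is 1.58-fold and 1.59-fold. The wild-type-mated column was the lowest, -0.18 against virgin and -0.17 against DTA-E-mated females. Against spermless-mated females it was at -0.84, or 1.79-fold lower, the largest difference of any of the 7 genes in the 6 comparisons. Virgin and DTA-E-mated females differed by -0.01, within the spread between probe sets.

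Mf encodes myofilin, another thick filament protein. Its values were 1.67 in virgin, 1.67 in DTA-E-mated, 2.01 in spermless-mated and 1.62 in wild-type-mated females. Here the spermless-mated column alone stood apart, by 0.39 against both virgin and DTA-E-mated females. Among the other columns no difference of Mf exceeded 0.03 in size, so those 3 could not be ordered beyond the spread between probe sets.

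Among the giant proteins, bt encodes projectin, a titin-like kinase that runs along the thick filament and, in flight muscle, links it to the Z-disc. The kept probe set of bt was at 0.25 in virgin, 0.30 in DTA-E-mated, 0.66 in spermless-mated and 0.25 in wild-type-mated females. Spermless-mated females were higher by 0.47 than virgin and by 0.41 than DTA-E-mated females, and the remaining columns lay within 0.05. A dimmer bt probe set below the filter ran from -1.31 in virgin to -1.17 in spermless-mated females. Those signals lie near the foreign controls, which were themselves highest in the spermless-mated column. Their part in that small difference was not tested.

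The gene sls encodes Sallimus, the other titin-like protein, which spans from the Z-disc to the thick filament end and includes the kettin isoforms. Its 4 probe sets were all dim, and 1 was kept. That one was at -0.19 in virgin, -0.24 in DTA-E-mated, -0.14 in spermless-mated and -0.19 in wild-type-mated females. Only the spermless-mated value of this probe set reached the filter of -0.18, so sls entered the comparison through the column in which it was highest. The centred differences of the spermless-mated column were 0.11 against virgin and 0.15 against DTA-E-mated females. The wild-type-mated column differed from it by -0.08, no more than the spread between probe sets. A second sls probe set, below the filter, separated the columns more, with -0.71 in virgin, -0.63 in DTA-E-mated, -0.44 in spermless-mated and -0.69 in wild-type-mated females. The remaining pair of sls probe sets, between -1.85 and -1.46, lay below the foreign controls.

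Unc-89 encodes obscurin, the giant kinase of the M-line. Its 4 probe sets disagreed. The brightest was at 0.98 in virgin, 0.92 in DTA-E-mated, 1.36 in spermless-mated and 0.73 in wild-type-mated females, the same order of columns as Prm and Tm2. The other kept probe set was flat, with -0.05 in virgin, -0.10 in DTA-E-mated, -0.03 in spermless-mated and -0.01 in wild-type-mated females. Below the filter, 1 probe set was also highest in wild-type-mated females, at -0.56 against -0.57 in spermless-mated females. The last peaked in the spermless-mated column at -1.10. Averaged over both, Unc-89 was higher by 0.25 in spermless-mated than in virgin females and by 0.30 than in DTA-E-mated females. With the brightest probe set alone these differences were 0.42 and 0.49, and with the dimmer kept one 0.07 and 0.12. The wild-type-mated against spermless-mated difference was -0.65 with the brightest and -0.00 with the dimmer one. The files do not say which transcripts each probe set detects.

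Tm2 encodes a tropomyosin, the coiled coil that lies along the thin filament and gates the access of myosin to actin. Its values were 0.36 in virgin, 0.22 in DTA-E-mated, 0.73 in spermless-mated and 0.17 in wild-type-mated females. Spermless-mated females were highest, by 0.42 against virgin and 0.56 against DTA-E-mated females. Unlike the thick filament genes, Tm2 was lower in DTA-E-mated than in virgin females by more than the spread between probe sets, at -0.14. DTA-E-mated and wild-type-mated females differed by -0.03 and could not be ordered. The wild-type-mated against spermless-mated difference of -0.59 was just past 1.5-fold, and in the columns as deposited it fell short of it at -0.56.

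Zasp66 encodes a Z-disc protein of the Zasp family. Its values were 1.96 in virgin, 1.91 in DTA-E-mated, 2.23 in spermless-mated and 1.77 in wild-type-mated females. The spermless-mated column was higher by 0.32 than virgin and by 0.37 than DTA-E-mated females. Wild-type-mated females were lowest, with differences of -0.49 against spermless-mated, -0.17 against virgin and -0.12 against DTA-E-mated females. The virgin and DTA-E-mated columns were within 0.05 of each other.

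**Figure D2:**
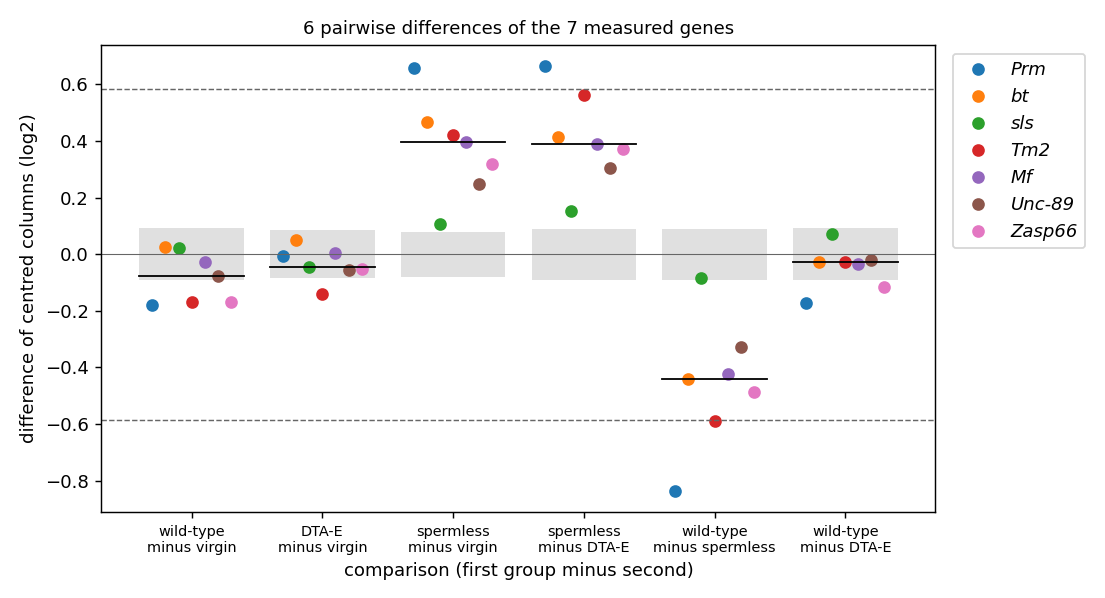
Difference of centred log2 columns (y axis) for the 7 measured genes (coloured points) in the 6 pairwise comparisons (x axis), with black bars for the median of the 7, grey bands for the pooled SD between probe sets of a gene in each direction, and dashed lines at 1.5-fold. The 3 comparisons with the spermless-mated column have medians of 0.39, 0.39 and -0.44, and the other 3 have medians between -0.08 and -0.03.

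Read by comparison, mating with wild-type males was accompanied by small differences in these genes. Against virgin females 5 of the 7 were lower, as were 46.4% of all genes, and 2 were higher. The median was -0.08 beside 0.01 over all genes. None of the 7 passed 1.5-fold, a size reached downward by 1% and upward by 0.177% of all genes. Prm, Zasp66 and Tm2, at -0.18, -0.17 and -0.17, were the members beyond the spread between probe sets, which 34.0% of all genes also exceeded. In DTA-E-mated females, which received neither sperm nor main-cell Acps, the median against virgin females was -0.05. Of the 7 genes 5 were lower, as were 45.5% of all genes. Again none passed 1.5-fold, against 0.387% of all genes downward and 0.194% upward. Wild-type-mated against DTA-E-mated females, which differ in both sperm and Acps, had a median of -0.03 with 6 lower and sls higher by 0.07. Of all genes 51.7% were lower there. None of the 7 passed 1.5-fold there, against 0.387% of all genes downward and 0.129% upward.

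The spermless-mated column carried the larger differences. It was higher than the virgin column in 7 of 7 genes, beside 52.3% of all genes. Of the 7, sls passed the filter only through the spermless-mated column. The median was 0.39, beside 0.00 over all genes. Prm passed 1.5-fold, as did 0.5% of all genes in that direction. At a lower threshold of 0.322 on the log2 scale, which 1.68% of all genes reached, bt, Tm2 and Mf joined it, and Zasp66 at 0.319 just missed it. Against DTA-E-mated females, the comparison that adds Acps without sperm, the median was also 0.39, and Prm was again the 1 gene of 7 past 1.5-fold, against 0.516% of all genes. At the lower threshold there were 5 of 7, with Zasp66 added, and 1.6% of all genes. Wild-type-mated against spermless-mated females, the comparison that adds sperm, had 7 of 7 lower, beside 45.3% of all genes, and a median of -0.44. Prm and Tm2 passed 1.5-fold, against 1.1% of all genes downward, and every member but sls passed the lower threshold, against 3.82%. These 3 comparisons share the spermless-mated column, so they are not separate observations. The spermless males also had bw sp tud1 mothers, whereas the other males were Canton S or of Canton S background. Acps or sperm, the strain of the males and the single spermless-mated column therefore cannot be told apart here. With that column compared to the highest of the other 3, Prm stood more than 1.5-fold above it, as did 0.226% of all genes, and Prm, bt, Tm2 and Mf passed the lower threshold, as did 0.71%.

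Genes that work in the same structure were set beside them. Of 24 other sarcomere genes listed, 19 were compared. Of these, 17 had the spermless-mated column as the highest, beside 23% of all genes. In 15 the wild-type-mated column was the lowest, beside 26.6% of all genes. Mlp60A, like sls, passed the filter only through the spermless-mated column, and without it the first count was 16 of 18. Against virgin females the spermless-mated column was higher in 52.3% of all genes, and past 1.5-fold in 0.5%. It was higher in 17 of the 19 and past 1.5-fold in 6, with a median of 0.40, close to the 0.39 of the 7 genes. In wild-type-mated against virgin females their median was -0.09, beside -0.08 for the 7 genes. The 4 most variable of the 19, named here, differed by more than any of the 7 in that comparison. Act88F, the flight muscle actin gene, was 1.31 above virgin in spermless-mated and -1.65 in wild-type-mated females. For fln, the flightin gene of the flight muscle thick filament, the differences were 1.07 and -1.33. TpnC4, a flight muscle troponin C gene, had 0.53 and -1.38, and the myosin light chain gene Mlc2 had 0.84 and -0.57. Set beside them, Prm, the member furthest from virgin in both columns, had 0.66 and -0.18. All 7 members lay between -0.18 and 0.02 in wild-type-mated against virgin females. Of the 19 other genes 3 were more than 1.5-fold lower, beside 1% of all genes. Whether the groups of genes differ could not be tested with 1 column per group.

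**Figure D3:**
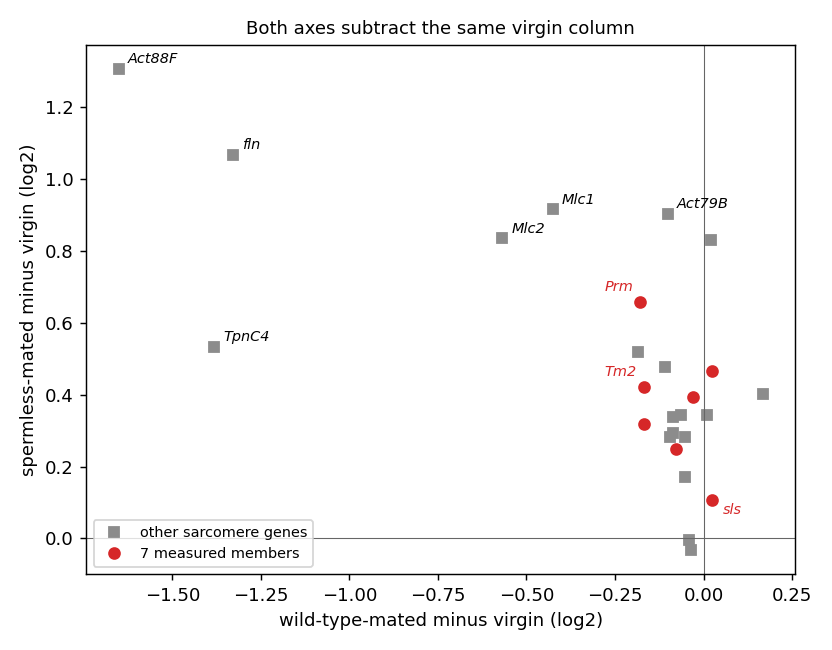
Wild-type-mated minus virgin (x axis, log2) against spermless-mated minus virgin (y axis, log2) for the 7 measured genes (red circles) and 19 other sarcomere genes (grey squares). Because both axes subtract the same virgin column, the slope between them is not informative. Act88F, fln and TpnC4, among the most variable of the 19, lie far to the left at -1.65, -1.33 and -1.38. The 7 genes lie at or right of -0.18. On the x axis the median of the 19 is -0.09, beside -0.08 for the 7 genes.

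Genes around the sarcomere varied less. Of 14 muscle attachment, calcium and assembly genes listed, 10 were compared. The spermless-mated column was the highest in 6 of them, beside 23% of all genes. Over all genes 52.3% were higher in spermless-mated than in virgin females and 0.5% past 1.5-fold. Among the 10, 8 were higher and 0 past 1.5-fold, with a median of 0.05. The leading genes handle calcium. SERCA, the calcium pump of the sarcoplasmic reticulum, was higher by 0.26, and RyR, its calcium release channel, by 0.25. RyR passed the filter only through the spermless-mated column, and without it 5 of 9 were highest there. Msr-110 differed by 0.04 and the arginine kinase gene Argk1 by 0.10. Of 12 non-muscle cytoskeleton genes 4 were compared, with a median of -0.01. These were chic (-0.07), cher (0.09), tsr (-0.09) and Mlc-c (0.05), which encode profilin, filamin, cofilin and a non-muscle myosin light chain.

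**Figure D4:**
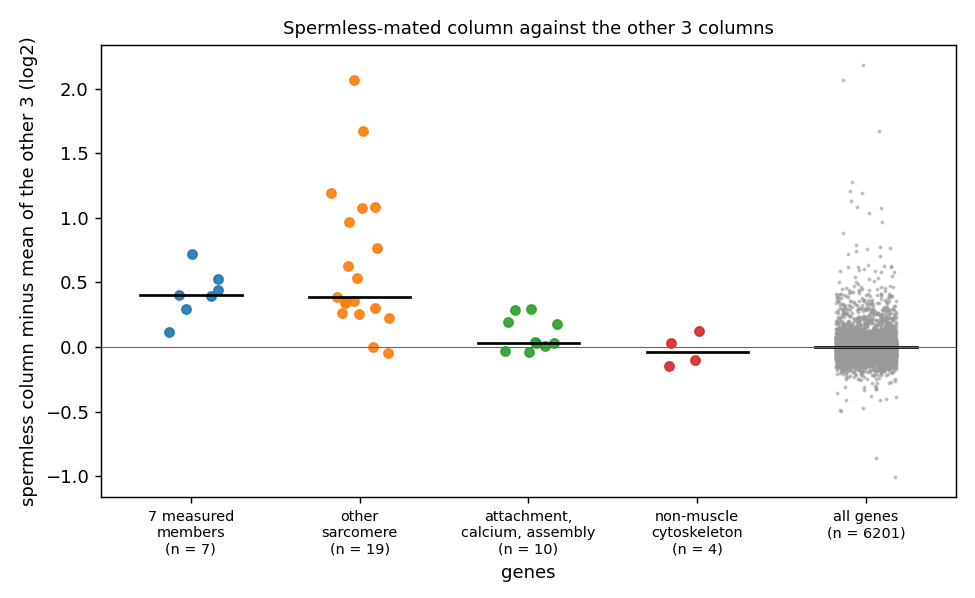
Spermless-mated column minus the mean of the other 3 columns (y axis, log2) for the 7 measured genes, for 3 lists of related genes and for all 6201 genes compared (x axis), with 1 point per gene and a black bar at the median. The medians are 0.40 for the 7 genes, 0.38 for other sarcomere genes, 0.03 for attachment, calcium and assembly genes, -0.03 for non-muscle cytoskeleton genes and 0.00 for all genes.

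Markers of other tissues also varied between the columns. Muscle, gut, fat body, ovary, eye and cuticle markers passed the filter, as whole flies would give, whereas 0 of 6 sperm and male accessory gland markers passed it. Of 4 cuticle markers 3 were highest in the spermless-mated column, beside 23% of all genes. Acp1 (1.32), Acp65Aa (1.16) and Cpr49Ae (1.05) led them against virgin females. Acp65Aa passed the filter only through the spermless-mated column. The summed level of the 4 cuticle markers on a linear scale was 10.1 there and 5.56 to 6.12 in the other columns. Over the 4 muscle markers measured, Act88F, TpnC4, Mlc2 and up, the summed level was 35.5 in the spermless-mated column, 19.2 in virgin, 16.1 in DTA-E-mated and 11.9 in wild-type-mated females. All 4 are also among the other sarcomere genes above, so their sum is not a separate readout, and most of it came from Mlc2. The 5 gut markers were all lowest after wild-type males, as were 26.6% of all genes. Their summed level was 35.3 there against 64.6 to 87.6 elsewhere. In the 6 fat body markers the range was 115 to 124 and in the 5 ovary markers 51.4 to 67.3. The fat body sum came mostly from the yolk protein genes Yp1, Yp2 and Yp3 and hides differences of the others. Against virgin females fit was 1.11 higher in wild-type-mated females, and Lsp2 and apolpp were at -0.58 and -0.46 in spermless-mated females. No fat body marker was highest in the spermless-mated column, where 23% of all genes were. For 3 eye markers the summed level was 7.10 to 8.39, the highest again in the spermless-mated column, through which alone the eye marker trp passed the filter. How far such tissue differences take part in the values of the 7 genes was not tested.

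The genes with the most similar profile over the 4 columns were sought outside all lists. The measure was the root mean square distance from the median profile of the 7 genes, after subtracting each gene's mean. Genes named only by a CG or CR annotation number were left out, so genes nearer than those given here can exist. The nearest was Ak1, an adenylate kinase gene, at 0.02, with values after centring of 0.81 in virgin, 0.72 in DTA-E-mated, 1.14 in spermless-mated and 0.69 in wild-type-mated females. TP53INP and AQP followed at 0.04 each. ND-B14.7, a complex I gene, and SdhD, a succinate dehydrogenase gene, both of the mitochondrial respiratory chain, were at 0.04, and tn, a gene known from muscle maintenance, at 0.05. Obp44a, of the odorant binding protein family, was at 0.05 and Rel, an immune NF-kappaB gene, at 0.05. Of the 7 genes themselves Mf was nearest to their median profile, at 0.03, and Prm farthest, at 0.16, with sls at 0.12. Of all 6201 genes compared, 6 lay at or within the distance of Mf, 397 within that of sls and 1396 within that of Prm. The measure rests on 4 columns and rewards genes of similar size of difference.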

How the data were processed

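RNA of whole-female pools was hybridised to an Affymetrix Drosophila GeneChip, per the labels' protocols. The deposited values, 1 column for each of 4 groups, were made by the authors and are read here as log2. Scaling, log base and the combination of 4 chips are not given in the sources used here. Of 14009 probe sets, 44 controls were set aside; 326 with several gene symbols and 1196 with none were left out, and 12394 of 12443 names were updated through RefSeq. Probe sets were filtered, columns centred and genes averaged as described above. The 6 comparisons are differences of columns without a test, called past 1.5-fold. The naming rule took every member, the 4 most variable genes of each list and the 8 nearest profiles, though not each is described. Those 8 were sought outside the lists and among genes not named by an annotation number. Members, lists and tests were chosen with earlier results of these data known. The procedure was tested on simulated data. Alternatives were scaling, filters, probe set choice, removal of an intensity trend (lowess, fraction 0.3, 3 iterations) and thresholds. No protein or promoter sequence table was used here, so the planned motif search was not run. Python 3.11.15, numpy 2.4.6, pandas 2.3.3, statsmodels 0.14.6 and matplotlib 3.10.9 were used.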

Additional observations from a re-analysis of the deposited data

How the results depend on the processing

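The spermless-mated column remained the highest for all 7 genes in the columns as deposited, after quantile normalization, without the filter, with the brightest or dimmest kept probe set and with the intensity trend removed. For Unc-89 with the dimmest kept probe set, however, the wild-type-mated against spermless-mated difference was only -0.004, within the spread between probe sets, and in the deposited values of that probe set the wild-type-mated column was the higher. The spermless-mated column was the highest for all 6 genes left by the stricter filter, and likewise by a filter on the mean of the columns, chosen after seeing the data, which removes sls. The wild-type-mated column was lowest for 5 genes, or for 6 as deposited, 4 after quantile normalization or with the dimmest kept probe set, and 3 of 6 under the stricter filter. With the main processing it was lowest for 26.6% of all genes. The spermless-mated column was the highest for 23% of all genes with the main processing and for 11.4% as deposited. Such shares of all genes were not computed under the other settings, so the counts there have no background beside them. The median difference of spermless-mated against virgin females was 0.28 without the filter, and that against DTA-E-mated females 0.48 under the stricter filter. Counts past the threshold moved with it. At the lower threshold of 0.322 (log2) they were 4, 5 and 6 of 7 for spermless-mated against virgin, spermless-mated against DTA-E-mated and wild-type-mated against spermless-mated females, and at 2-fold they were 0 in each, where 0.129%, 0.161% and 0.355% of all genes passed. Under the stricter filter 2 genes passed in spermless-mated against DTA-E-mated females. In wild-type-mated against spermless-mated females 1 gene passed, instead of 2, as deposited or without the filter, and 3 passed with the brightest probe set, Unc-89 being added at -0.65. Under the stricter filter 2 passed, with Unc-89 (-0.64) in place of Tm2 (-0.58). Of 324 differences of single genes under alternatives, 303 moved by less than the spread between probe sets and 21 by more, all of them for Unc-89 or bt, where probe sets disagree. Every gene but Unc-89 had 1 kept probe set, so the brightest and dimmest probe set alternatives returned its main value. Those differences could not move, and their place among the 303 says nothing on stability. No paired analysis was possible because each group has 1 column.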
